A study of Mus musculus with 14 samples.

Results

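The regions described here are 1746 DMC1 peaks of *Hells* cKO testes that lay between genes and had no *Hells* CTRL peak at the same place. Each had fewer than 15 CG dinucleotides within 250 bp of its center. They are called CpG-poor only relative to *Hells* cKO peaks with more CG, such as those at start sites (mean 40.2). Their mean of 10.5 CG was above that of windows 1000 bp to each side (5.34 and 5.38). It was also above that of *Hells* CTRL peaks between genes without a *Hells* cKO partner (3.86). The 1746 peaks make up 10.2% of the 17117 peaks of the *Hells* cKO list (exact 95% confidence interval, CI, 9.75 to 10.7%). The study compared *Hells* CTRL mice with *Hells* cKO mice by DMC1 ChIP-SSDS, which sequences the single-strand DNA recovered with the strand exchange protein DMC1 and so maps DNA double-strand breaks (DSBs) of meiosis. *Hells* CTRL was Hellsfl/Δ, with 1 floxed and 1 deleted *Hells* allele, and was collected at 5 weeks of age from 2 testes per replicate. *Hells* cKO was Hellsfl/Δ;Stra8-iCre, the same alleles with a Cre transgene driven by the *Stra8* promoter, and was collected at 9 weeks from 3 testes per replicate. Both genotypes carried the *Prdm9* allele Dom2 on a C57BL/6N background. Genotype and age differed together and cannot be told apart in these lists. Whole testis was used, and the study states that HELLS was still seen in some spermatocytes of the mutant. The 2 replicates of each genotype were merged before deposit, so that 1 list of 17117 peaks (*Hells* cKO) and 1 list of 11133 peaks (*Hells* CTRL) were available and no test across mice was possible. The intervals given for shares therefore cover counting error only, and peaks are not replicates of a genotype.

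In mouse meiosis, DSBs are made by SPO11 at sites that the zinc finger protein PRDM9 binds and marks by methylating histone H3. HELLS is a SNF2-like chromatin remodeler that works with PRDM9. Where PRDM9 is missing, DSBs form mainly at promoters and other open chromatin that carries H3K4me3. Most promoters of the mouse are rich in CG dinucleotides, whereas the bulk of the genome has lost most of its CG.

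The members were chosen by position and sequence. The center of a peak was the midpoint of its interval, and a *Hells* cKO peak counted as absent from *Hells* CTRL when no control center lay closer than 400 bp. This held for 15988 peaks, 93.4% of the list, of which 15443 were on autosomes. Leaving out peaks with a GENCODE M21 transcript start within 1 kb kept 5557 peaks, and requiring fewer than 15 CG within 250 bp of the center kept 2903. Of these, 1746 had their center inside no annotated gene. CG count, distance to start sites, gene overlap and absence from the control list are thus fixed by the choice and are given below as description only. The groups most like the members were 1157 mutant-specific peaks of the same CG range inside genes, 2654 mutant-specific peaks with 15 or more CG away from start sites, in or between genes, and 3847 *Hells* CTRL peaks between genes with no *Hells* cKO partner. The mutant-specific peaks with a start site within 1 kb numbered 9886.

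The limits of the rule differed in how many peaks lay close to them. There were 269 members with 14 CG (median strength 19), and 220 peaks met every other criterion with 15 CG (median strength 20). Only 19 members lay less than 250 bp beyond the 1 kb reach, against 18 peaks that met the other criteria in the last 250 bp inside it. A control center lay between 400 and 1000 bp away from 12 members, and 287 peaks met all the criteria except that a control center lay closer than 400 bp. Few peaks thus lay close to the limit on start sites on either side, while the limit on CG passed through a dense range of peaks. Few members lay just outside the limit on control centers, but that limit removed 287 peaks.

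The sequences at the centers of the 4 strongest members without a tandem repeat are shown first, because they show what DNA these peaks fell on. Each is the plus strand of GRCm38 over 201 bases around the center, and capitals mark the E-box CACGTG, one of the motifs described further on. The *Ccr1* and *Prep* sequences also hold the AP-1 word TGANTCA, left in lower case.
*Ccr1* peak, chr9:123927545-123927745, strength 415: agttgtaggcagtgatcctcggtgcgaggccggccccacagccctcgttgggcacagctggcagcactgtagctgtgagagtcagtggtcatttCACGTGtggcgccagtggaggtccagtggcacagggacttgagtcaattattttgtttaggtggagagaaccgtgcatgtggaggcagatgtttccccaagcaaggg
*Dph6* peak, chr2:114430480-114430680, strength 212: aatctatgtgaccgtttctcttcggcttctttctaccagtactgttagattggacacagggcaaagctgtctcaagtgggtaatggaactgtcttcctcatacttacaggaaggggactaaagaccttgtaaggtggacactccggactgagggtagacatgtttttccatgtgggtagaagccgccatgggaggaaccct
*Vmn2r-ps159* peak, chr4:156314203-156314403, strength 210: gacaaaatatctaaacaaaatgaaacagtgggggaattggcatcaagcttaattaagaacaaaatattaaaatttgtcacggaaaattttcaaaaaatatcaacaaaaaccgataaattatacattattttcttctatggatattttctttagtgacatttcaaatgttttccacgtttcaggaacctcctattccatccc
*Prep* peak, chr10:45048800-45049000, strength 180: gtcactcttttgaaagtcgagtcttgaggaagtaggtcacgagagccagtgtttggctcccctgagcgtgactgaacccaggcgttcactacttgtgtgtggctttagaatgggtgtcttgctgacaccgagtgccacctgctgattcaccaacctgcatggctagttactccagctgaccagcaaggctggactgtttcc
Within 250 bp of the center, GC content was 53.1% at the *Ccr1* peak, 45.3% at the *Dph6* peak and 50.7% at the *Prep* peak, and 38.1% at the *Vmn2r-ps159* peak, which thus had the most A and T of these 4. The names are those of the gene with the nearest start site, which states a position and not a target.

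The strength of a peak is the authors' score for its DMC1 signal, and it is compared here only within the *Hells* cKO list. The members were mostly weak. Their median strength was 20 (quartiles 14 and 31, range 5 to 415, CI of the median 19 to 20), against 31 for all *Hells* cKO peaks. Peaks of the same CG range inside genes also had a median of 20 (quartiles 14 and 32), CG-rich peaks off promoters had 24 (quartiles 16 and 40) and peaks at start sites had 42 (quartiles 23 and 83). Of the members, 73.8% (CI 71.7 to 75.9%) lay in the lower 50% of the list, and 15 of 1746 (0.859%, CI 0.482 to 1.41%) lay in its top 10%. By comparison, 1.56% of the CpG-poor peaks inside genes (CI 0.925 to 2.45%), 3.20% of the CG-rich peaks off promoters (CI 2.57 to 3.95%) and 14% of the peaks at start sites (CI 13.3 to 14.7%) reached the top 10%. With 10.2% of the peaks, the members held 5.08% of the summed strength of the list, whereas the peaks at start sites held 69.3%.

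**Figure D1:**
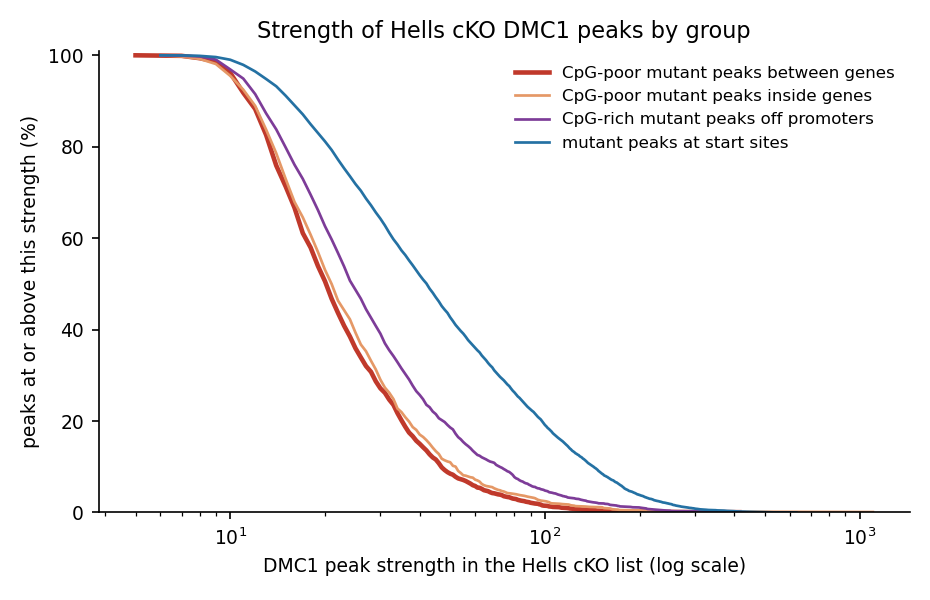
Share of peaks (vertical axis, percent) at or above each DMC1 strength (horizontal axis, log scale, the authors' score) in 4 groups of *Hells* cKO peaks, 1 merged list with no error bars. The curves of the CpG-poor peaks between genes and inside genes lie together with a median of 20, and the curve of the peaks at start sites lies to the right with a median of 42.

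The members were a median of 1822 bp wide (quartiles 1562 and 2108), and stronger members were wider. In 5 equal classes of strength the median width went from 1507 bp in the weakest (strength 5 to 13) to 2056 bp in the strongest (strength 35 to 415), and across members strength and width had a Spearman correlation of 0.53 (n = 1746 peaks of 1 list, described without a test). Strength had hardly any relation within the members to CG count (0.055), GC content (0.049), masked sequence (-0.040) or distance to a start site (-0.055). The CG range was truncated by the rule, so the first of these values describes only peaks with 14 CG or fewer.

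The strongest member lay on chromosome 9, between 123925828 and 123929461, 41047 bp from the start of *Ccr1*, a chemokine receptor gene. Its strength of 415 was in percentile 99.7 of the list and about as far above the next member as that member was above the median. By the RefSeq annotation the center of this peak lay inside a gene or pseudogene, 2497 bp from the start of Gm51701. The second (chromosome 2, 114429564 to 114431595, strength 212) was 115311 bp from *Dph6*, which acts in diphthamide synthesis, but only 257 bp from the start of Gm31146, a gene model of the RefSeq annotation that the rule did not use. The third member (chromosome 4, 156312718 to 156315887, strength 210) was 16800 bp from Vmn2r-ps159 of the vomeronasal receptor family, and had 5 CG and a GC content of 38.1%. These 3 peaks differed in GC content, at 53.1%, 45.3% and 38.1%, and the *Ccr1* and *Vmn2r-ps159* peaks were wide, at 3634 and 3170 bp.

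The next members were closer together in strength. A peak of strength 180 (chromosome 10, 45047873 to 45049926) was 18303 bp from *Prep*, which encodes a prolyl endopeptidase, and a peak of strength 154 (chromosome 4, 88640225 to 88644270) was 2211 bp from *Ifna13*, an interferon gene. The *Ifna13* peak was the widest of the 12 strongest, at 4046 bp, with 1 CG within 250 bp of its center. A peak of strength 153 (chromosome 6, 72794360 to 72796433) was 6143 bp from *Tcf7l1*, a transcription factor of the Wnt pathway. A peak of strength 146 on the same chromosome (94760132 to 94762057) was 38337 bp from Gm43997, with *Lrig1*, a negative regulator of growth factor receptors, as the nearest protein-coding gene at 60937 bp. The gene nearest to the eighth (chromosome 3, 31130589 to 31132900, strength 145) was *Cldn11*, the claudin of the Sertoli cell barrier, at 18175 bp.

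Of the other members among the 12 strongest, 3 are described here. The peak of strength 143 (chromosome 14, 98781264 to 98783319) was 67479 bp from the pseudogene Gm27034, and the peak of strength 141 was 26847 bp from *Egr1*, an immediate early transcription factor. The peak of strength 131 (chromosome 17, 51361313 to 51363322) was 73520 bp from the long noncoding RNA gene AC154488.1. None of the 12 held a tandem repeat. In 10 of them every word of 31 bases within 250 bp of the center occurred once in the assembly, and the lowest share was 88.5%, at the *Ifna13* peak.

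At the other end, the weakest member had strength 5 (chromosome 8, 9101569 to 9102910) and was 30048 bp from 4933430N04Rik. It was followed by strengths 6 (chromosome 8, 98301993 to 98303048, near Gm7192) and 7 (chromosome 9, 32407822 to 32409317, 14585 bp from the potassium channel gene *Kcnj1*). In the region of chromosome 1 around *Rab3gap2*, which encodes a subunit of a regulator of RAB GTPases, there was 1 member (185191882 to 185193943, strength 95, percentile 85.3), 11204 bp from the *Rab3gap2* start. This peak had 13 CG and another *Hells* cKO peak 11054 bp away.

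Although the rule kept only centers with fewer than 15 CG, the members stood out from their own surroundings. The sequence within 250 bp of the center had a mean of 10.5 CG (SD 2.93) and the same windows 1 kb to the left and right had 5.34 (SD 3.76) and 5.38 (SD 4.66). GC content, which the rule did not use directly, was 48.1% (SD 4.55) at the center and 41.7% and 41.6% at the windows 1 kb away, and was higher at the center than the mean of both flanks in 1531 of 1746 members (87.7%, CI 86.1 to 89.2%). CpG-poor peaks inside genes had nearly the same values, with 48.3% at the center and 41.7% and 41.9% beside it. At the control-only peaks between genes, GC content was 42.2% at the center and 41.7% on both sides, with 3.86 CG at the center and 3.79 and 3.77 beside it. The surroundings of the members thus had about the GC content of the control-only peaks but more CG, and the centers had more of both. The groups chosen for more CG or for a start site had higher GC content still, at 53.9% and 63.5%.

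**Figure D2:**
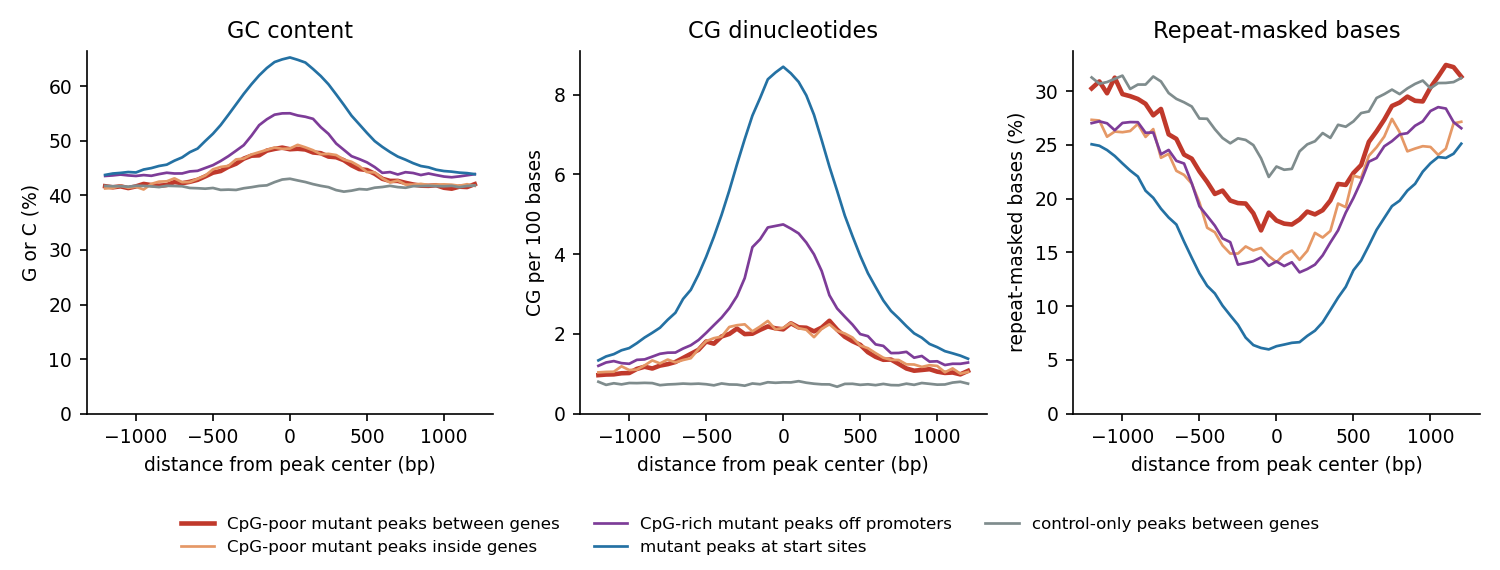
Mean GC content, CG per 100 bases and percent of repeat-masked bases (vertical axes) in steps of 50 bp by distance from the peak center (horizontal axis, bp) for 5 groups of peaks. The CpG-poor peaks between genes rise to 48.1% GC within 250 bp of the center from 41.7% at 1 kb, the control-only peaks between genes have 42.2% over the same bases, and masked bases dip at the center in all groups.

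Repeats were fewer at the centers than beside them. The central base lay in sequence masked as repeat in 321 of 1746 members (18.4%, CI 16.6 to 20.3%), against 30.4% of the bases 1 kb away (CI 28.8 to 31.9%). In CpG-poor peaks inside genes 13.6% of centers were masked (CI 11.6 to 15.7%), in CG-rich peaks off promoters 13.6% (CI 12.4 to 15%) and in control-only peaks between genes 22.8% (CI 21.5 to 24.2%). Only uniquely mapped reads were kept by the authors, so highly repeated sequence could give few peaks in either list. Of the members, 67.4% (CI 65.1 to 69.6%) had only words of 31 bases that occur once in the assembly within 250 bp of the center, and 30 members (1.72%, CI 1.16 to 2.44%) had under 50% of such words. A tandem repeat was found in 20 members (1.15%, CI 0.701 to 1.76%), against 0.73% of all *Hells* cKO peaks (CI 0.608 to 0.869%). The share was 3.03% in the CpG-poor peaks inside genes (CI 2.12 to 4.18%), 1.02% in the CG-rich peaks off promoters (CI 0.671 to 1.48%) and 0.676% in the control-only peaks between genes (CI 0.442 to 0.989%).

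Motifs of transcription factors were searched within 100 bp of the center on both strands, and in windows of the same length 1 kb to each side. Of 19 motifs, 6 were at least 1.5 times as frequent at the members' centers as beside them. The ETS word CCGGAAG, bound by a large family of factors active at promoters, was at 70 centers (4.01%, CI 3.14 to 5.04%) and in 0.773% of the flanking windows (CI 0.510 to 1.12%). The SP1 word GGGCGGG was at 91 centers (5.21%, CI 4.22 to 6.36%) against 1.52% (CI 1.14 to 1.98%), and the YY1 word AAGATGGC at 75 centers (4.30%, CI 3.39 to 5.35%) against 1.35% (CI 0.991 to 1.79%). These 3 are the words best known from the promoters of broadly expressed genes. The word lay in repeat-masked sequence at 31 of the 91 SP1 centers, 31 of the 75 YY1 centers and 5 of the 70 ETS centers. The E-box CACGTG, the site of basic helix-loop-helix factors, was at 90 centers (5.15%, CI 4.17 to 6.30%) against 2.35% (CI 1.87 to 2.91%). Matches to the NRF1 word GCATGCGC (15 centers, 0.859%, CI 0.482 to 1.41%, against 0.229%) and to the RFX X-box (9 centers, 0.515%, CI 0.236 to 0.976%, against 0.115%) were rare, and for the RFX X-box the intervals of centers and flanks overlapped.

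**Figure D3:**
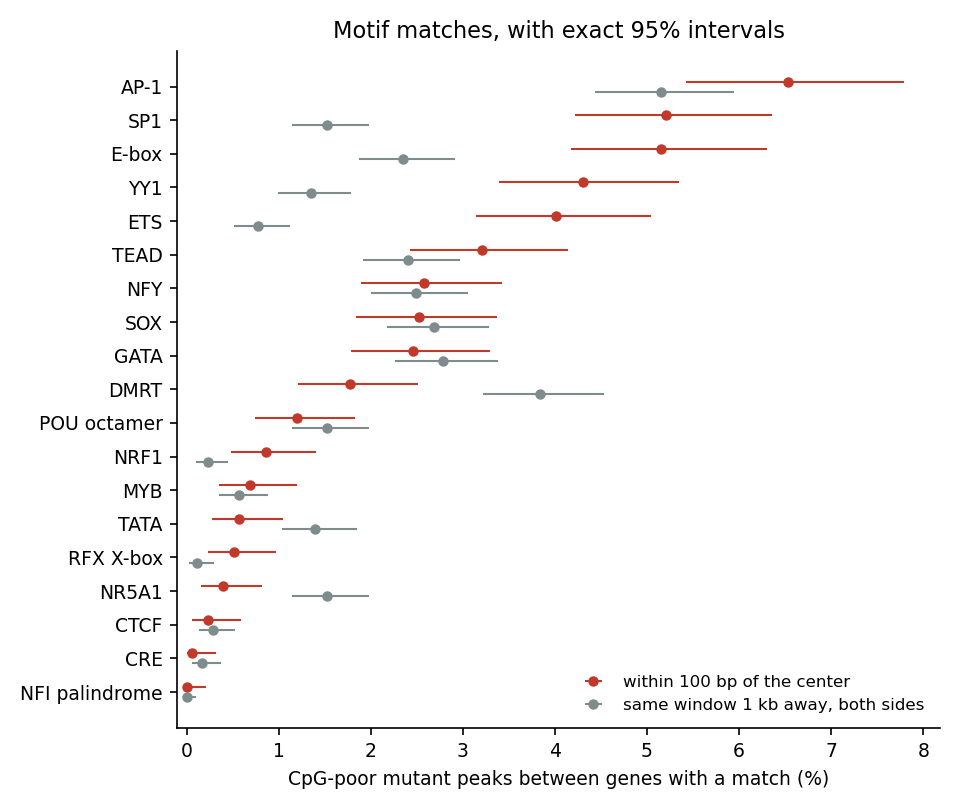
Percent of the CpG-poor mutant peaks between genes (horizontal axis) with a match to each of 19 motifs (vertical axis) within 100 bp of the center (red) or in the same window 1 kb away (gray), with exact 95% intervals for counting error. ETS, SP1, YY1 and E-box matches sit at 4.01 to 5.21% of centers, each above its flanks, and NR5A1, DMRT and TATA matches sit below theirs.

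At least 1 of the ETS, SP1, YY1, NRF1 and E-box words was at 318 of 1746 centers (18.2%, CI 16.4 to 20.1%) and in 5.96% of the flanking windows (CI 5.19 to 6.79%). In the other groups of mutant peaks the share at the center was 14.4% inside genes (CI 12.5 to 16.6%), 26.2% in CG-rich peaks off promoters (CI 24.6 to 27.9%) and 38.3% at start sites (CI 37.3 to 39.2%). In the control-only peaks between genes it was 4.57% at the center (CI 3.94 to 5.28%) and 5.03% beside it (CI 4.55 to 5.54%). The SP1 word set the groups furthest apart, with 27.2% of the peaks at start sites, 10.2% of the CG-rich peaks off promoters, 5.21% of the members and 0.598% of the control-only peaks. Over all *Hells* cKO peaks the shares were 19.1% for SP1, 6.36% for ETS, 3.14% for YY1 and 4.93% for the E-box. Within the members the share with at least 1 of the 5 words did not follow strength, at 17.4%, 19.2%, 16%, 20.9% and 17.5% from the weakest to the strongest of the 5 classes. All of these words except AAGATGGC contain more G and C than A and T, and GC content was higher at the centers, as given above. The same words also contain CG, the dinucleotide that the rule counted. The CpG-poor groups and the CG-rich peaks were separated by that count, so their order in these shares is partly fixed by the choice. CG count was also higher at the members' centers (10.5) than beside them (5.34 and 5.38). The part of base composition and CG count in these shares was not tested.

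None of the other motifs reached 1.5 times its flanking share within 100 bp of the centers. CTCF, the insulator protein with a paralog of the testis, had a match at 4 centers (0.229%, CI 0.0625 to 0.586%) and in 0.286% of the flanking windows (CI 0.137 to 0.526%). Within 250 bp of the center the CTCF share was 1.37%, and no flanking windows of that width were counted. The CRE word TGACGTCA of CREB and CREM was at 1 center. No center or flank matched the palindromic NFI motif, 0 of 1746, which allows a share of up to 0.172% at 3 counts (upper limit of the exact interval 0.211%). The words of MYB factors (GGCAGTTG, 0.687% against 0.573%), NF-Y (CCAATCA, 2.58% against 2.49%), GATA factors (AGATAAG, 2.46% against 2.78%), SOX factors (ACAATGG, 2.52% against 2.69%) and POU factors (ATGCAAAT, 1.20% against 1.52%) had overlapping intervals at center and flank, as had the AP-1 word TGANTCA (6.53% against 5.15%) and the TEAD word ACATTCC (3.21% against 2.41%). The NR5A1 word CAAGGTCA (0.401%, CI 0.161 to 0.824%, against 1.52%, CI 1.14 to 1.98%) and the DMRT word ACATTGT (1.78%, CI 1.21 to 2.51%, against 3.84%, CI 3.22 to 4.53%) were less frequent at the center than beside it. The TATA word TATAAAAG had 0.573% (CI 0.275 to 1.05%) against 1.40% (CI 1.04 to 1.85%), with intervals that just overlapped. The ratio of center to flank for NR5A1 was 0.264 in the members. It was 0.8 in CpG-poor peaks inside genes, 0.644 in CG-rich peaks off promoters and 0.464 at start sites. In the same order DMRT had 0.463, 0.584, 0.38 and 0.217, and TATA had 0.408, 0.759, 1.9 and 0.193. The DMRT and TATA words hold more A and T than G and C, and GC content was higher at the centers. The part of base composition was not tested. Overlapping intervals do not show equal shares, and the ratio of center to flank was 1.27 for AP-1 and 1.33 for TEAD. A match is a description of letters and not evidence of binding.

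The strongest members with the ETS, NRF1, SP1 and YY1 words show these in place, and the strongest with an E-box is the *Ccr1* peak above. Each line gives the motif in capitals, on the plus strand of GRCm38.
ETS, chr19:30360703-30360903, strength 96: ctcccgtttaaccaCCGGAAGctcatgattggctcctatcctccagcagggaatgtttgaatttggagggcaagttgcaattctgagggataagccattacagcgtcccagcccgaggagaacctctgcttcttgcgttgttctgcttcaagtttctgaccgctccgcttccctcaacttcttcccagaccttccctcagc
NRF1, chr10:124090655-124090855, strength 125: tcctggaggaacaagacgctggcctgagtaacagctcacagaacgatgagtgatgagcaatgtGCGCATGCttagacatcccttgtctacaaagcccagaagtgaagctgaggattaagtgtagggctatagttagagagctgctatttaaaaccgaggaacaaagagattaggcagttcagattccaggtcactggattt
SP1 and E-box, chr14:104061824-104062024, strength 89: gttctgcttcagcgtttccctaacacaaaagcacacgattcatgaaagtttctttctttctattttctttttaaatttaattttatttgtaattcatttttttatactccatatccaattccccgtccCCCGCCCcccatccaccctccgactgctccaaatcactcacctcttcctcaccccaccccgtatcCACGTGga
YY1, chr6:94760995-94761195, strength 146: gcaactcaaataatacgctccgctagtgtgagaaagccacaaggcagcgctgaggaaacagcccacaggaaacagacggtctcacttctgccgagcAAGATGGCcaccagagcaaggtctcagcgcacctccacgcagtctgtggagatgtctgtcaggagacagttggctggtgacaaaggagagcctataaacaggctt
The ETS peak has its word near the left end of the window, 127861 bp from the nearest protein-coding start, that of *Mbl2*, a lectin gene. The NRF1 peak (strength 125) lay 128107 bp from the nearest start site of any kind, and the YY1 peak is the one near *Lrig1*. At the SP1 peak, 50.7% of the bases within 250 bp of the center are masked as repeat.

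To ask which words were concentrated at the members without a list of known motifs, all 8-base words present in 30 or more members near the center were ranked by their ratio to the flanking windows. These words were selected on the members, so their ratios describe the members and support nothing. The first was AGATGGCG, which overlaps the YY1 word by 7 bases, at 48 centers (2.75%, CI 2.03 to 3.63%) and in 0.315% of the flanking windows. The same word was at 4.26% of the CG-rich peaks off promoters (CI 3.52 to 5.10%), 2.33% of the peaks at start sites (CI 2.04 to 2.64%), 1.47% of the CpG-poor peaks inside genes (CI 0.858 to 2.34%) and 0.182% of the control-only peaks between genes (CI 0.0732 to 0.375%). The next words were GCCCCGCC (30 centers), GATGGCGC (38 centers) and CCCCGCCC (62 centers), of which the second overlaps the first word and the others hold or overlap the SP1 word. The copies differed in their setting. At the members, 28 of 48 centers with AGATGGCG had it in repeat-masked sequence, and in the CG-rich peaks 81 of 113, whereas at start sites 17 of 230 had it there.

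Part of these repeat copies were near-identical to each other. When members were linked by 10 or more shared 16-base words in the central window, 95 of 1746 members (5.44%, CI 4.42 to 6.61%) fell into 20 sets, against 2.85% of the CpG-poor peaks inside genes (CI 1.97 to 3.98%), 8.18% of the CG-rich peaks off promoters (CI 7.16 to 9.28%) and 9.46% of the control-only peaks between genes (CI 8.56 to 10.4%). Links were sought only within each group, and a larger group offers more possible partners. The shares rose in the order of group size (1157, 1746, 2654 and 3847 peaks), so they do not rank the groups. The largest set held 23 members on 15 chromosomes (strength 12 to 46) and no AGATGGCG. The second held 12 members on 10 chromosomes (median strength 31, range 12 to 77), 7 of them with the word. The lines below give 4 of its stronger members, aligned on the word in capitals and read on the strand that holds it. In pairs they share 51 to 56 of 60 bases.
chr4:4432893-4432952 (minus strand), strength 77: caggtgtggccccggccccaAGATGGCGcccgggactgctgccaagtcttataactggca
chr8:62466296-62466355 (minus strand), strength 50: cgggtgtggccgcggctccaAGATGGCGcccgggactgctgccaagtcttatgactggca
chr12:84025594-84025653 (plus strand), strength 39: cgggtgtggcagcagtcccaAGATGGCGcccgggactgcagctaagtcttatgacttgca
chr6:25264010-25264069 (plus strand), strength 35: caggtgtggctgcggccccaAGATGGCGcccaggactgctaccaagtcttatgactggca
A set of 6 members on 4 chromosomes (strength 8 to 27) had the word in all 6, and the 4 members below share 58 to 60 of 60 bases in pairs.
chr5:16400163-16400222 (plus strand), strength 27: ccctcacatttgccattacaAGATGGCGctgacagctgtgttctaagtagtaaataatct
chr6:137723554-137723613 (minus strand), strength 24: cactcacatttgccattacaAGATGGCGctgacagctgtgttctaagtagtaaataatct
chr5:61552279-61552338 (minus strand), strength 22: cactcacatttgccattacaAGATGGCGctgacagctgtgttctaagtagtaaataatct
chr19:52353098-52353157 (plus strand), strength 17: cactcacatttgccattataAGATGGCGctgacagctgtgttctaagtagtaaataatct
In the first line 48 of 60 bases are masked as repeat in the assembly, and in the others all 60. Members of a set share their sequence and are not independent examples of the word.

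To see whether the members resembled the sites of *Hells* CTRL mice, the 20 words (of 8 bases each) with the highest concentration at control-only centers were counted. At least 1 of them was within 100 bp of the center in 203 members (11.6%, CI 10.2 to 13.2%) and in 7.5% of the windows 1 kb away (CI 6.65 to 8.43%). The share was 34.8% in the control-only peaks between genes (CI 33.2 to 36.3%) and 7.36% beside them (CI 6.78 to 7.96%). These peaks were among the autosomal control-only peaks on which the words were selected. The other mutant groups had shares of 10.2% (CpG-poor, inside genes), 11.8% (CG-rich, off promoters) and 14.2% (start sites) at the center. The share of the members was close to those of the other mutant groups and above that of their flanks. The higher share of the control-only peaks is partly fixed by the choice of words and is description only. GC content was also higher at the members' centers (48.1%) than beside them (41.7% and 41.6%), and its part in the share was not tested.

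The members were spread through the space between genes. Their median distance to the nearest GENCODE start site was 20569 bp (quartiles 10157 and 41640), and 53140 bp to the nearest start of a protein-coding gene (quartiles 22402 and 159252). Of the members, 2.86% (CI 2.13 to 3.76%) had a start site between 1 and 2 kb, 68.5% (CI 66.3 to 70.7%) between 10 and 100 kb, and 6.93% (CI 5.78 to 8.22%) beyond 100 kb, where 11.4% of the control-only peaks between genes were (CI 10.4 to 12.5%). None was more than 500 kb from a start site. The center lay upstream of the nearest start in 57.3% of the members (CI 54.9 to 59.6%), as in 57.0% of the control-only peaks between genes (CI 55.4 to 58.6%). The 3 strongest of the members between 1 and 2 kb had strengths of 92 (chromosome 2, 68563896 to 68565927, 1530 bp from the pseudogene Gm49461), 77 (chromosome 3, 130694202 to 130696065, 1488 bp from *Ostc*, of the oligosaccharyltransferase) and 52 (chromosome 19, 23756547 to 23758602, 1312 bp from *Apba1*, a neuronal adaptor).

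A second annotation, RefSeq, had not been used by the rule. A RefSeq transcript start lay within 1 kb of 106 members (6.07%, CI 5.00 to 7.30%), against 56 of 3847 control-only peaks between genes (1.46%, CI 1.10 to 1.89%). It was 4.75% in the CpG-poor peaks inside genes (CI 3.6 to 6.14%), 8.55% in the CG-rich peaks off promoters (CI 7.52 to 9.68%) and 57.4% over all *Hells* cKO peaks, most of which lie at start sites. Among the members the share was 5.71% in the weakest class of strength (CI 3.53 to 8.69%) and 7.74% in the strongest (CI 5.16 to 11.1%). Most of the strongest such members were at gene models without a characterized function: after Gm31146 came, among others, Gm31471 at 91 bp (strength 93), Gm36488 at 147 bp (strength 86), Gm30763 at 233 bp (strength 81) and Gm29822 at 332 bp (strength 66). These examples were picked after their values were seen, and 254 members (14.5%, CI 12.9 to 16.3%) lay inside a RefSeq gene or pseudogene, against 11.4% of the control-only peaks between genes (CI 10.4 to 12.4%) and 74.1% of all *Hells* cKO peaks. Between genes therefore means outside the GENCODE M21 genes.

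RefSeq also lists curated regulatory elements, and the intervals of 11 members overlapped one (0.630%, CI 0.315 to 1.12%), against 3 control-only peaks between genes (0.0780%, CI 0.0161 to 0.228%). Over all *Hells* cKO peaks 0.567% did (CI 0.460 to 0.691%). The share was 0.519% in the CpG-poor peaks inside genes (CI 0.191 to 1.13%) and 1.17% in the CG-rich peaks off promoters (CI 0.795 to 1.65%). Elements enter this list because a laboratory studied them, so it is far from complete. Of the 11, 7 overlapped an enhancer of the VISTA collection, which is built on tests in transgenic embryos. Their nearest protein-coding genes were *Tmem182* (strength 14), *Hsfy2* (13), *Kcnj2* (24), *Nckap5l* (34), *Zfp36l2* (26), *Cbfa2t2* (30) and *Atp11b* (21). Other members overlapped the neuronal enhancer region of *Pomc*, the hormone precursor gene (strength 11), an enhancer near *Tbx4*, a limb transcription factor (11), a conserved stretch of the *Des* locus control region (22, the muscle desmin gene) and a region near *Ranbp17* targeted by CRISPR interference (18). All 11 had strengths of 34 or less.

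Other *Hells* cKO peaks were often close. Another peak of the list had its center within 25 kb of 728 members (41.7%, CI 39.4 to 44.0%), as for 41.6% of all *Hells* cKO peaks (CI 40.9 to 42.3%), and within 5 kb of 32 members (1.83%, CI 1.26 to 2.58%). In the control list, with its smaller number of peaks, 15.6% of the control-only peaks between genes had such a neighbor within 25 kb (CI 14.5 to 16.8%). For 296 of the 728 (40.7%, CI 37.1 to 44.3%) the nearest was a peak at a start site. For 210 (28.8%, CI 25.6 to 32.3%) it was another member, and for 182 (25%, CI 21.9 to 28.3%) a CG-rich peak off promoters. Of the 17117 peaks of the list, 9886 were such peaks at start sites, 1746 (10.2%) were members and 2654 were CG-rich peaks off promoters. Peaks at start sites were thus a smaller part of the nearest neighbors than of the list, and the other 2 groups a larger part. The share with a neighbor was 33.1% in the weakest class of members (CI 28.2 to 38.3%), 40.1%, 38.4% and 45.3% in the next 3 and 51.6% in the strongest (CI 46.2 to 56.9%). Stronger members therefore had a neighboring peak more often than the weakest ones in this list.

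**Figure D4:**
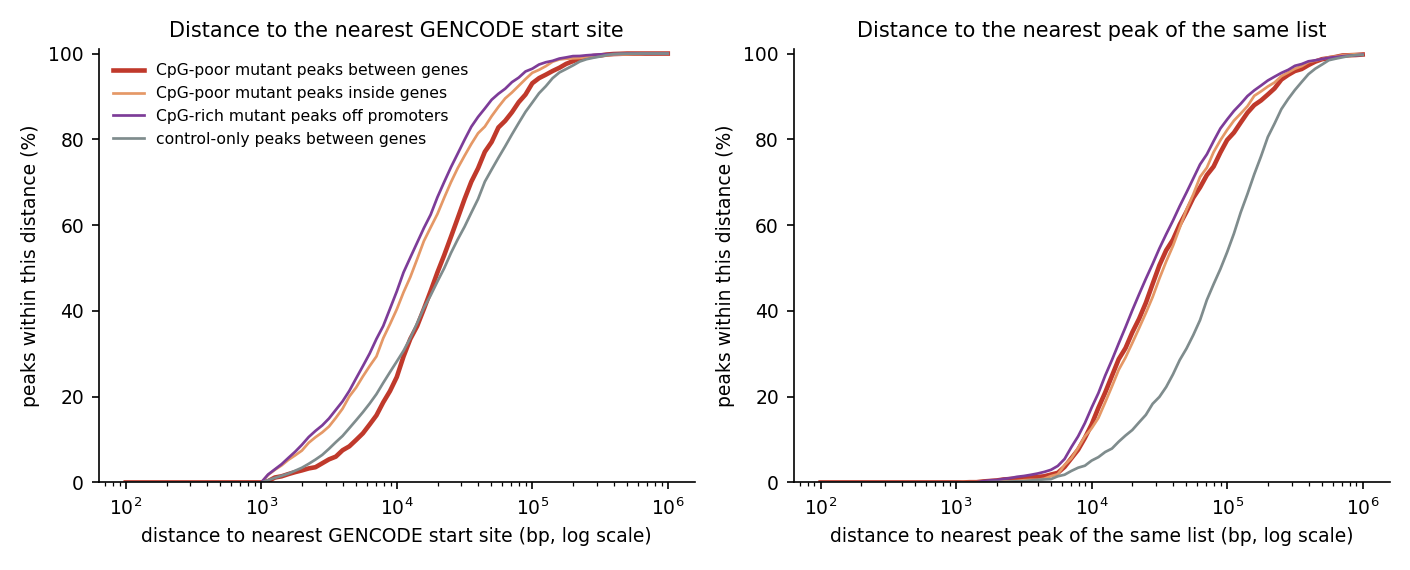
Percent of peaks (vertical axes) within a given distance (horizontal axes, bp, log scale) of the nearest GENCODE start site (left) and of the nearest peak of the same list (right) in 4 groups. The CpG-poor mutant peaks between genes have a median of 20569 bp to a start site and 30881 bp to another *Hells* cKO peak, and the control-only peaks between genes have 22464 bp and 89792 bp.

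The windows of 200 kb with the most members held 5 each. The one with the largest summed strength (596) spanned 123925828 to 124088588 on chromosome 9 and began with the *Ccr1* peak. It went on with peaks of strength 45 near *Ccr3* and 58, 51 and 27 near *Ccr2*, all genes of chemokine receptors. These 4 peaks had 0 to 3 CG within 250 bp of the center, below the 13 of the *Ccr1* peak, and between 91.3 and 100% of their words of 31 bases were unique. A window on chromosome 19 (30344429 to 30518600) held members of strength 11 and 96 near *Mbl2* and 21, 16 and 43 nearest to *Dkk1*, which encodes a secreted Wnt inhibitor. A window on chromosome 18 (82708834 to 82893297) held members of strength 20, 62, 77, 43 and 17, between the zinc finger genes *Zfp236* and *Zfp516*, in a stretch of 13 *Hells* cKO peaks in all. In each of the 3 windows the strongest member was more than 4 times the weakest.

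Over the autosomes there were 0.729 members per Mb of assembled sequence, and the density differed between chromosomes. The highest values were 1.19 per Mb on chromosome 18 (104 members), 1.14 on chromosome 10 (145) and 1.01 on chromosome 17 (93), and the lowest were 0.310 on chromosome 7 (44) and 0.371 on chromosome 9 (45). Control-only peaks between genes were also fewest on chromosomes 7 and 9 (1.23 and 1.29 per Mb). Across the 19 autosomes the density of members had a Spearman correlation of 0.465 with that of the control-only peaks between genes, -0.132 with that of mutant peaks at start sites, -0.326 with that of protein-coding genes and -0.549 with assembled length, described without a test, since chromosomes share base composition and gene content. The median strength varied little, from 16 on chromosomes 4 and 13 to 22 on chromosomes 17 and 19.

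**Figure D5:**
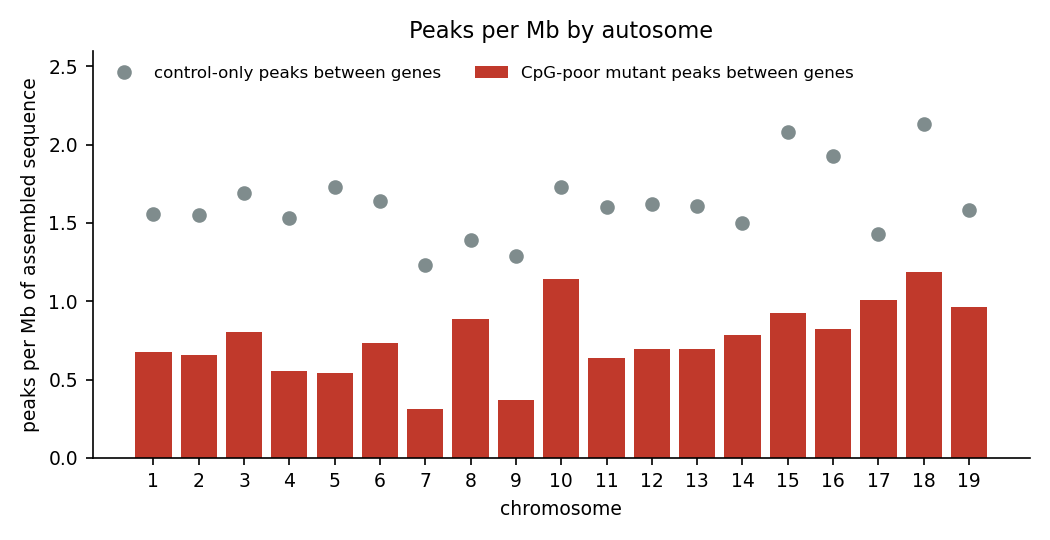
CpG-poor mutant peaks between genes (bars) and control-only peaks between genes (points) per Mb of assembled sequence (vertical axis) on each autosome (horizontal axis), 1 merged list per genotype. The bars are highest on chromosomes 18 and 10 (1.19 and 1.14) and lowest on chromosomes 7 and 9 (0.310 and 0.371).

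The members were nearest to 1272 different protein-coding genes, 966 of which had a single member. The genes with the most often lay far from their members. *Efna5*, an ephrin that guides axons, had 15 (45776 to 1895848 bp from its start, strengths 9 to 42), and *Adgrl2*, an adhesion receptor, had 12 (strengths 97, 63, 60, 55, 51, 32, 28, 20, 18, 16, 10 and 9). *Nr2f2*, a nuclear receptor of mesenchymal cells, had 8 (strength 12 to 39) and the potassium channel gene *Kcnj2* had 7 (strength 11 to 56). The cadherin gene *Cdh8*, the kinase gene *Map3k7* and the repressor gene *Zeb2* had 6 each. Control-only peaks between genes were found at all of these, from 1 at *Kcnj2* to 9 at *Adgrl2*. By the nearest start of any kind, 30.2% of members were next to a protein-coding gene, 28.4% to a pseudogene and 23.9% to a long noncoding RNA gene. The control-only peaks between genes had 28.3%, 30.8% and 21.9%, and all *Hells* cKO peaks had 69.4%, 11.1% and 12.5%. The rule left out peaks at start sites and inside genes, so the distance of the members from the whole list is partly fixed by the choice.

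The nearest protein-coding genes were also counted by lists. Of 43 genes of meiotic recombination and synapsis on the autosomes, 1 was nearest to a member (0.0573% of members, CI 0.00145 to 0.319%, against 0.257% of all *Hells* cKO peaks, CI 0.187 to 0.345%, and 0 of 3847 control-only peaks between genes): *Rec114*, a partner of MEI4 in DSB formation, 23488 bp from a peak of strength 36. Of 23 transcription factors of germ cells, *Creb1* (strength 14) and *Id4* (strength 9) were nearest to a member (0.115% of members, against 0.181% of all *Hells* cKO peaks and 0.208% of the control-only peaks between genes). Of 19 genes of Sertoli and Leydig cells, 4 were nearest to 6 members (0.344%, CI 0.126 to 0.746%, against 0.129% of all *Hells* cKO peaks, CI 0.0806 to 0.195%, and 0.286% of the control-only peaks between genes, CI 0.143 to 0.511%): *Cldn11*, *Sox9* with 3 peaks of strength 16, 12 and 11 between 29111 and 621455 bp, *Kitl* (10) and *Fshr* (10). The developmental families Hox, Sox, Fox, Pax, Lhx, Tbx and Gata had 25 members (1.43%, CI 0.929 to 2.11%) at 16 genes, against 1.35% of the control-only peaks between genes (CI 1.01 to 1.77%) and 0.87% of all *Hells* cKO peaks (CI 0.737 to 1.02%), with strengths up to 43, at *Foxk1*. Chemosensory receptor genes were nearest to 10 members (0.573%, CI 0.275 to 1.05%) and to 1.12% of the control-only peaks between genes (CI 0.810 to 1.5%), against 0.391% of all *Hells* cKO peaks (CI 0.303 to 0.497%). The nearest gene is a position, and these counts were not tested.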

How the data were processed

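The 2 final DMC1 ChIP-SSDS peak lists (mm10) were used. Before deposit, the authors shortened reads to 50 bp, filtered them at Phred 28, removed duplicates and reads that did not map uniquely, ran MACS on the replicates and their pool, and selected peaks by the Irreproducible Discovery Rate. The deposited value is the authors' score for each peak, its strength, in whole numbers. The methods give a fragment count normalized to local background and library size, and state that no normalization between the genotypes was possible. The number of reads behind a score is unknown. The tools named in the submitters' processing notes are CASAVA, Trimmomatic, Bowtie2, BWA and MACS2.

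Centers, distances, CG counts, motifs, words, tandem repeats (0.7 of bases identical at 1 lag between 10 and 400 bp, in 500 bp) and unique words were computed here from GRCm38.p6, whose soft masking marks repeats, with GENCODE M21 and RefSeq, using scipy 1.17.1, pandas 2.3.3 and numpy 2.4.6 under Python 3.11.15 (figures with matplotlib 3.10.9). The functions were checked on simulated data. Shares have exact (Clopper-Pearson) 95% intervals, and medians an order-statistic interval. The regions named are the 12 strongest members, the 3 weakest, the 3 strongest at 1 to 2 kb from a start site, the strongest with each motif at a ratio of at least 1.5, the members of 3 dense windows and of a window of chromosome 1, and the genes next to them; any beyond 500 kb would have been named. The members and lists were chosen with earlier results of these data known. Alternatives changed the partner rule, the reach to a start site, the genes, the CG limit, the chromosomes, the strengths, the tandem repeats and each window. A region and a sequence that this rule names are not reported here. The 5hMeDIP libraries were not analysed here.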

Additional observations from a re-analysis of the deposited data

How the results depend on the processing

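No paired analysis was possible because each deposited list comes from merged replicates, and no replicate could be left out. Of 77 values under alternatives, 63 stayed within the interval of the reported value, or within 1.5 times the reported count, and 14 did not. Fewer than 10 CG in place of 15 left 524 members in place of 1746, of which 24.8% had a masked center, 34.4% another *Hells* cKO peak within 25 kb and 10.5% no start site within 100 kb. Strength at or above the median of the list left 457, with a median strength of 42 and a neighbor for 50.3%. With protein-coding genes only, 5.32% were beyond 100 kb. The remaining shares changed when their own definition was changed. A CTCF match was found in 1.37% within 250 bp, and in 0.229% both within 50 bp and within 100 bp. In 6.87%, 50% or more of the bases within 250 bp were masked. A control word was found in 5.33% with 10 words and in 21.9% with 50. A neighbor was found for 13.5% within 10 kb and for 63.0% within 50 kb. The unknown number of reads behind each strength limits what the weak peaks can show.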

Other observations

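The ends of the chromosomes held no excess of the CpG-poor mutant peaks between genes. The distal 5 Mb of the autosomes, 3.95% of their assembled span, held 53 of 1746 (3.04%, CI 2.28 to 3.95%), and the proximal 10 Mb, 7.91% of the span, held 108 (6.19%, CI 5.10 to 7.42%). The control-only peaks between genes had 3.54% (CI 2.97 to 4.17%) and 8.29% (CI 7.44 to 9.21%) in the same stretches.

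The 3 members farthest from a GENCODE start site, named after their values were seen, lay 482118 bp from Gm5263 on chromosome 1 (strength 28), 415275 bp from AC125133.1 on chromosome 18 (strength 30) and 365205 bp from Gm25665 on chromosome 8 (strength 25). Each had most of the bases within 250 bp of its center masked as repeat, at 58.5%, 62.7% and 58.1%, against a median of 13.0% over all members.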
